A study of Homo sapiens with 9 samples.

Results

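The genes that open replication origins and run the replication fork were followed across RKO cells given UHRF1 siRNA, the histone deacetylase inhibitor trichostatin A (TSA), both, or 5-aza-2'-deoxycytidine (5-aza-dC). The list held 52 genes in 14 subcomplexes, chosen by name but with earlier results of these data known. All were among the 36337 gene names on the array, and each was represented by its brightest probe. RKO is an established human colorectal cancer cell line. All 8 siRNA arrays came from RKO cells that had 72 h with an siRNA and then a further 24 h with ethanol (mock) or 300 nM TSA, and there were 2 arrays in each group. The siCONT group had control siRNA and mock, siUHRF1 had siRNA against UHRF1 and mock, and siCONT + TSA and siUHRF1 + TSA had the same siRNAs with TSA. Replicate 1 of each UHRF1-depleted group carried siUHRF1-1 and replicate 2 carried siUHRF1-2, so these pairs differ in siRNA. A single further array held RKO cells after 72 h of 1 µM 5-aza-dC and no siRNA, and it was compared with siCONT. The labels do not say that arrays of a group came from separate cultures, so p-values measure only the spread between these arrays, which may be technical.

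DNA replication starts where the origin recognition complex (ORC) sits on DNA and, with CDC6 and CDT1, loads the MCM2-7 helicase in G1. In S phase the kinase CDC7-DBF4 and firing factors bring in CDC45 and GINS, primase and polymerase alpha lay primers, and polymerases epsilon and delta copy the strands with the clamp PCNA, its loader RFC and the single-strand binder RPA. Many of these genes are textbook targets of E2F transcription factors and are transcribed around the start of S phase in cycling cells, tumour lines included. UHRF1 binds hemimethylated DNA behind the fork and recruits the methyltransferase DNMT1 there, whereas 5-aza-dC traps DNA methyltransferases.

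Levels are log2 signals relative to the 75th percentile of the same array, and a gene was called when limma gave it a Benjamini-Hochberg adjusted p below 0.05 over all probes tested. That percentile lay between 245 and 338 on the siRNA arrays, with 43.6% to 46.6% of probes well above background, and was 822 with 51.6% on the 5-aza-dC array. The 8 siRNA arrays shared 1 slide and 1 scan, but mock and TSA filled different rows and control and UHRF1 siRNA different columns, so position and treatment cannot be told apart. Over the 52 genes, the median gap between duplicate arrays was 0.035 in siCONT, 0.18 in siUHRF1, 0.044 in siCONT + TSA and 0.28 in siUHRF1 + TSA. The target of the siRNAs was low in both depleted groups. UHRF1 read 2.69 and 2.69 in siCONT, 0.36 and 0.075 in siUHRF1, 2.87 and 2.86 in siCONT + TSA and -0.34 and -0.62 in siUHRF1 + TSA. It fell by 2.47 without TSA (standard error 0.14, adjusted p = 0.00238) and by 3.35 with TSA (adjusted p = 0.000132). The reference genes ACTB and GAPDH were not called in any comparison, with ACTB at 0.47 for TSA alone (adjusted p = 0.084). Of 5 epithelial markers, KRT8 and KRT18 were above background on all 8 siRNA arrays, KRT19 on 2, EPCAM on 1 and CDH1 on 0. Of 4 intestinal markers, CDX2 was above it on all 8, KRT20 on 1 and CDH17 and VIL1 on 0. Of 4 markers of other cell types, the collagen gene COL1A1 was above it on 8, the leukocyte gene PTPRC on 5, COL1A2 on 2 and PECAM1 on 0. The summed level of these last 4, as a linear signal over the 75th percentile, was 0.237 to 0.262 in siCONT, 0.257 to 0.412 in siUHRF1, 0.462 to 0.495 in siCONT + TSA and 0.669 to 0.943 in siUHRF1 + TSA. It was highest in siUHRF1 + TSA. The sum of the 5 epithelial markers was 47.2 to 47.7 in siCONT and 73.8 to 90.6 in siUHRF1 + TSA. That of the 4 intestinal markers was 2.70 to 2.80 in siCONT and 2.98 to 3.42 in siUHRF1 + TSA. The part of these sums in the results was not tested.

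All 52 replication genes passed the filter on dim probes, and 51 were above background on all 9 arrays. The exception was CDC6, which was not well above background on siUHRF1 + TSA replicate 1, so its values that use that array are given with and without it. The map of all members by array shows the 4 TSA arrays as the low ones and the 2 siUHRF1 arrays close to siCONT. Relative to the siCONT mean, the median of the 52 genes was -0.079 and 0.017 on the siUHRF1 arrays, -0.46 and -0.43 on the siCONT + TSA arrays, and -0.70 and -0.49 on the siUHRF1 + TSA arrays.

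**Figure D1:**
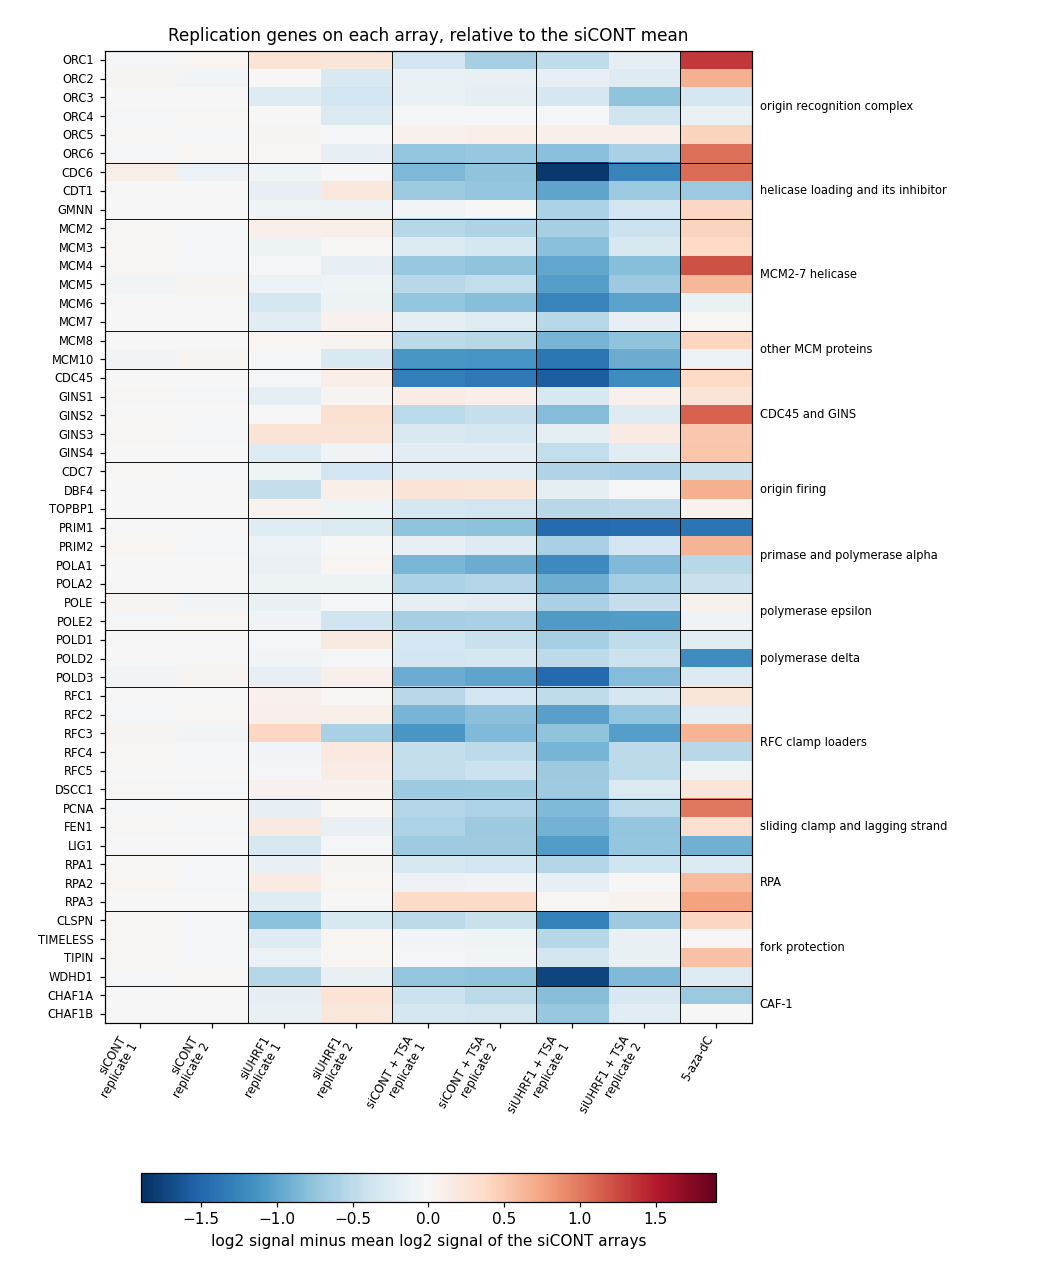
Log2 signal of each of the 52 genes (rows, by subcomplex) on each of the 9 arrays (columns), minus the gene's mean on the 2 siCONT arrays; blue is lower and red is higher. The TSA columns are mostly blue, darkest at CDC45, PRIM1 and WDHD1 and at CDC6, which is not well above background on siUHRF1 + TSA replicate 1, while ORC5 and RPA3 are pale or red there, and the 5-aza-dC column holds both colours.

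The combination of UHRF1 depletion and TSA lowered replication genes broadly. Against siCONT, 32 of 52 genes were called lower and 0 higher, while 8.24% of the 23726 probes tested were called lower and 15.0% higher (6.73% and 7.33% with spike-in scaling). The members' median log2 fold change was -0.55, against 0.053 for all probes, and 50 of 52 values were below 0, as were 44.5% of all probes. Both siUHRF1 + TSA arrays were below both siCONT arrays for 47 of 52 genes, as they were for 29.3% of all probes. The change exceeded 2-fold in 9 genes: CDC6, PRIM1, CDC45, WDHD1, MCM10, POLD3, MCM6, POLE2 and POLA1. In such bulk RNA, fewer cells of a type (for example in S phase) and less RNA per cell cannot be told apart. The count of called genes moved with single arrays: it was 11 without siCONT replicate 1, 9 without siCONT replicate 2 and 20 without siUHRF1 + TSA replicate 1. With each of the 8 arrays left out in turn, the members' median ran from -0.70 to -0.49, and 47 of 52 values were below 0 in all 8 of these fits. Neither the counts of called genes in these fits nor that of 47 was taken over all probes, so they describe the members only.

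**Figure D2:**
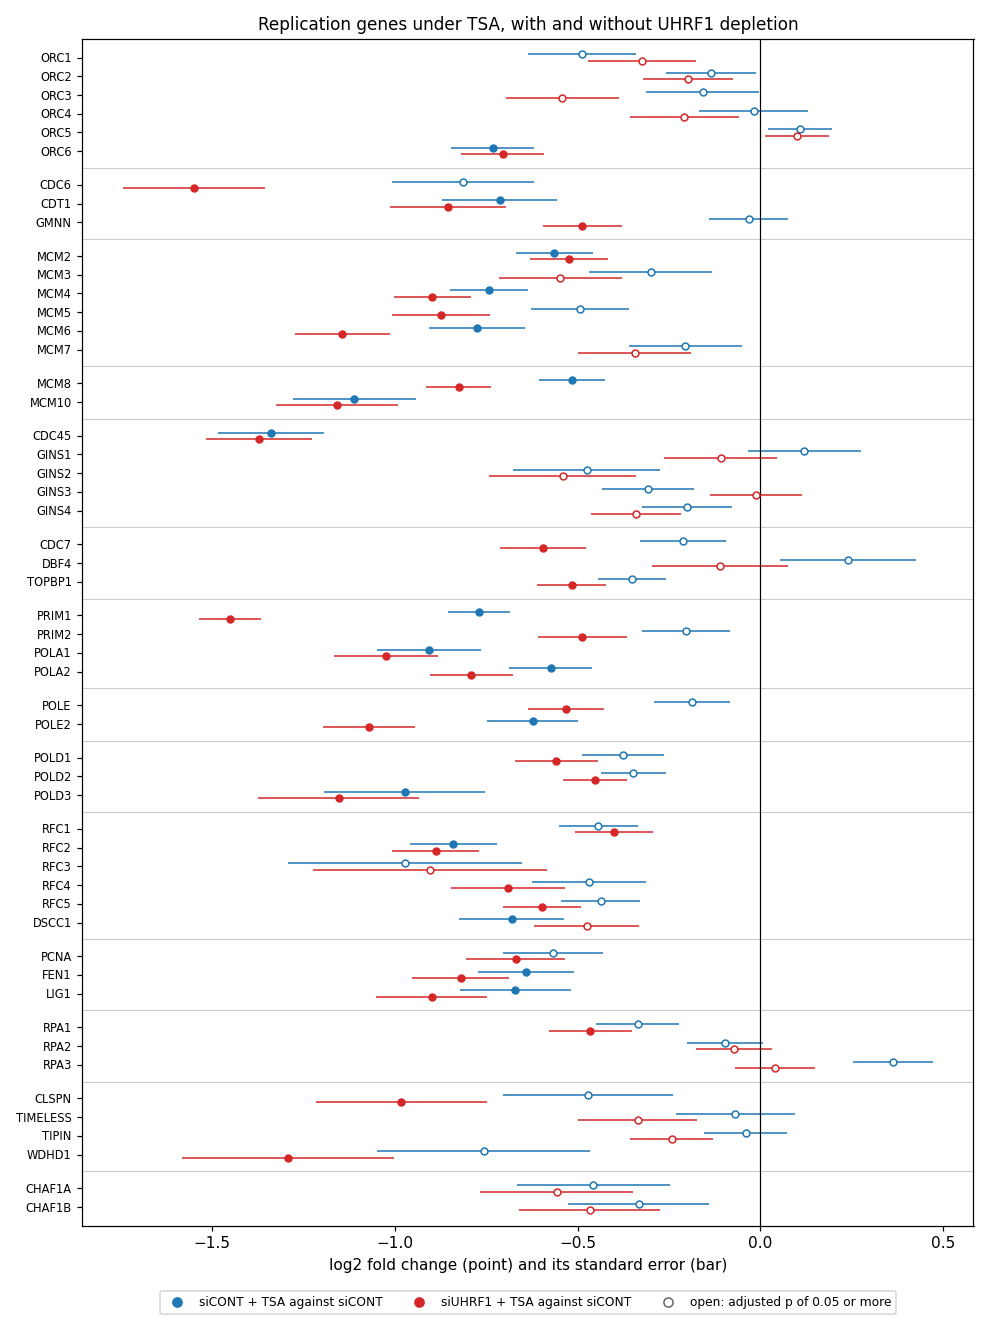
Log2 fold change of each gene with its standard error for siCONT + TSA (blue) and siUHRF1 + TSA (red), both against the same 2 siCONT arrays; filled points have an adjusted p below 0.05, and lines separate the subcomplexes. PRIM1 lies at -1.45 in red and CDC45 farthest to the left in blue, at -1.34; the red point of CDC6, at -1.55, is -1.26 without the array where its probe was not above background.

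The promoters of these genes were searched for short motifs, which the choice of genes had not used. RefSeq windows of 300 bases on GRCh38.p14, from 250 before to 50 after the start of the gene, matched 45 of the 52 genes by symbol, and the first window of a symbol was taken. An E2F motif, written as TTTCCCGC, TTTCGCGC, TTTGCCGC or TTTGGCGC on either strand, was found in 20 of 45 (44.4%), compared with 3.33% of the 27305 windows of all genes. The CCAAT box (CCAAT) was found in 25 of 45 (55.6%) and in 35.7% of all windows, and the cell cycle homology region CHR (TTTGAA) in 1 of 45 (2.22%), DBF4, and in 15.4% of all. E2F and CCAAT letters overlapped in 1 member. All 4 MCM2-7 genes with a window and both polymerase epsilon genes held E2F letters, as did 3 of 4 in the CDC45 and GINS group, 1 of 6 ORC genes and 1 of 5 clamp loader genes. Of the genes with E2F letters 13 of 20 were called lower in the combination, and of those without 16 of 25, with median log2 fold changes of -0.73 and -0.49. A match describes these letters only. The 120 bases just before the start are printed for 4 genes called lower with E2F letters there, for GINS2, which has them and was not called, for PRIM1, which was called without them, and for ORC5, which had the highest fold change of the members. Capitals mark E2F and CCAAT letters on either strand, and the sequences read 5′ to 3′ on the strand of the gene.
MCM6, chr2:135876444-135876563 (- strand), overlapping E2F letters on both strands, with CCAAT letters on each side: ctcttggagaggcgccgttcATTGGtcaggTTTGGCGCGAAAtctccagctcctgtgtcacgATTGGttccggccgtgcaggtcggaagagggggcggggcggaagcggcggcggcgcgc
POLA2, chr11:65261842-65261961 (+ strand), E2F: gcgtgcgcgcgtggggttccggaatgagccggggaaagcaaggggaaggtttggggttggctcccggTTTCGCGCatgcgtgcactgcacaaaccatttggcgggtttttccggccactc
PCNA, chr20:5126623-5126742 (- strand), E2F between CCAAT letters: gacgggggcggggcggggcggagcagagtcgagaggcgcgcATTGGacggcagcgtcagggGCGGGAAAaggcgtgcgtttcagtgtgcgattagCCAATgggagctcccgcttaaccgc
CDT1, chr16:88803669-88803788 (+ strand), E2F: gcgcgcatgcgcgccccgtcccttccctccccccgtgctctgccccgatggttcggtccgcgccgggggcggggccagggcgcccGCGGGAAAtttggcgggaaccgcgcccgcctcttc
GINS2, chr16:85688955-85689074 (- strand), E2F: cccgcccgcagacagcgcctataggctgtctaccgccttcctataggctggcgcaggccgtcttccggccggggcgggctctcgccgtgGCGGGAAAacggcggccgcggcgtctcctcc
PRIM1, chr12:56752324-56752443 (- strand), CCAAT: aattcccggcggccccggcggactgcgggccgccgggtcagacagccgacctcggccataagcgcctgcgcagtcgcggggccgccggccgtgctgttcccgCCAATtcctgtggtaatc
ORC5, chr7:104208014-104208133 (- strand), neither: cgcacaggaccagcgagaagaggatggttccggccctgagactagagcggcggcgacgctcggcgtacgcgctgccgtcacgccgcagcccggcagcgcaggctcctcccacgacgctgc

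Among the ORC genes, 1 of 6 was called lower in the combination. This was ORC6, the small subunit. ORC6 read 0.70 and 0.77 in siCONT, 0.78 and 0.58 in siUHRF1, -0.0092 and 0.019 in siCONT + TSA and -0.055 and 0.12 in siUHRF1 + TSA. All 4 arrays with TSA were below all 4 without it, and the TSA groups overlapped. ORC6 fell by 0.70 (standard error 0.11, adjusted p = 0.0088). ORC5, an ATPase-fold subunit whose promoter stretch above holds neither motif, stayed between 2.63 and 2.79 on the 8 siRNA arrays. Its log2 fold change was 0.099 (adjusted p = 0.457) and -0.049 with spike-in scaling. ORC1, ORC2, ORC3 and ORC4 had -0.32, -0.20, -0.54 and -0.21 and were not called, and ORC2 had 0.057 when its probes were averaged.

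All 3 genes of helicase loading and its inhibitor were called lower. CDC6 is the ATPase that works with ORC to load the helicase. CDC6 read -2.27 and -2.48 in siCONT, -2.45 and -2.36 in siUHRF1, -3.23 and -3.14 in siCONT + TSA and -4.21 and -3.64 in siUHRF1 + TSA. The groups with TSA lay below those without it, and the siUHRF1 + TSA arrays lay below the siCONT + TSA arrays. The probe was above background on 1 of the 2 siUHRF1 + TSA arrays, replicate 2. With both arrays the log2 fold change against siCONT was -1.55 (standard error 0.19, adjusted p = 0.00418), without replicate 1 it was -1.26 (adjusted p = 0.0105), and with normexp background correction it was -0.48 (adjusted p = 0.227). CDT1, the partner of CDC6 in loading, fell by 0.85 (adjusted p = 0.0135). Geminin, the inhibitor of CDT1, is encoded by GMNN. GMNN read 3.07 and 3.09 in siCONT, 3.01 and 2.98 in siUHRF1, 3.02 and 3.07 in siCONT + TSA and 2.48 and 2.71 in siUHRF1 + TSA. The 2 low arrays were those with both treatments, and GMNN fell by 0.49 (adjusted p = 0.0235), with -0.032 for TSA alone (adjusted p = 0.872).

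In the MCM2-7 helicase, 4 of 6 subunits were called lower, and for all 6 both siUHRF1 + TSA arrays were below both siCONT arrays. The largest fall was in MCM6, whose promoter stretch holds the overlapping E2F letters. MCM6 read 3.86 and 3.84 in siCONT, 3.51 and 3.75 in siUHRF1, 3.1 and 3.04 in siCONT + TSA and 2.58 and 2.83 in siUHRF1 + TSA. These 4 groups did not overlap, and MCM6 fell by 1.14 in the combination (2.21-fold, standard error 0.13, adjusted p = 0.0031). MCM4, MCM5 and MCM2 fell by 0.90, 0.87 and 0.52. MCM3 and MCM7 had log2 fold changes of -0.55 and -0.34 and were not called (adjusted p = 0.0632 and 0.16). Both other MCM genes were called. MCM8 encodes a helicase of recombination repair. MCM8 read 0.64 and 0.63 in siCONT, 0.67 and 0.68 in siUHRF1, 0.14 and 0.11 in siCONT + TSA and -0.24 and -0.13 in siUHRF1 + TSA. The TSA arrays were the low ones, the siUHRF1 + TSA pair lowest, and MCM8 fell by 0.83 (standard error 0.089, adjusted p = 0.00263). MCM10, which joins the helicase as it is activated, fell by 1.16 (adjusted p = 0.00625).

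CDC45 and GINS complete the active helicase, and 1 of these 5 genes was called. CDC45 read 4.18 and 4.15 in siCONT, 4.14 and 4.29 in siUHRF1, 2.85 and 2.80 in siCONT + TSA and 2.60 and 2.99 in siUHRF1 + TSA. Both TSA groups lay far below both mock groups and overlapped each other. CDC45 fell by 1.37 in the combination (2.59-fold, standard error 0.14, adjusted p = 0.00244). No GINS gene passed the test (0 of 4; limma gave GINS2 and GINS4 unadjusted p below 0.05). Their log2 fold changes were -0.54 for GINS2, -0.34 for GINS4, -0.11 for GINS1 and -0.013 for GINS3 (adjusted p = 0.104, 0.0953, 0.647 and 0.955). Without siUHRF1 + TSA replicate 1, GINS1 and GINS3 had 0.087 and 0.15.

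Among the firing genes, CDC7 and TOPBP1 were called and DBF4 was not. TOPBP1 is a scaffold of origin firing and of ATR signalling. TOPBP1 read 2.11 and 2.13 in siCONT, 2.18 and 2.04 in siUHRF1, 1.78 and 1.76 in siCONT + TSA and 1.59 and 1.62 in siUHRF1 + TSA. Its TSA groups did not overlap each other or the mock groups, and it fell by 0.52 (standard error 0.093, adjusted p = 0.0127). CDC7, the kinase that phosphorylates the helicase, fell by 0.59 (adjusted p = 0.0166). DBF4, its activating subunit, had a log2 fold change of -0.11 (standard error 0.19, adjusted p = 0.705). The difference between the kinase and its activator was not tested.

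Primer synthesis held the member of lowest p in the combination, PRIM1, the catalytic primase subunit. PRIM1 read 1.89 and 1.89 in siCONT, 1.66 and 1.61 in siUHRF1, 1.12 and 1.11 in siCONT + TSA and 0.43 and 0.45 in siUHRF1 + TSA. The 4 groups were spaced apart, and the 2 UHRF1 siRNAs gave close values. PRIM1 fell by 1.45 in the combination (2.73-fold, standard error 0.085, adjusted p = 0.000323). All 4 genes of primase and polymerase alpha were called lower: the catalytic subunit POLA1 fell by 1.02, its partner POLA2 by 0.79 and the large primase subunit PRIM2 by 0.49. PRIM2 had 2 further probes, which fell by 0.68 and 1.02.

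**Figure D3:**
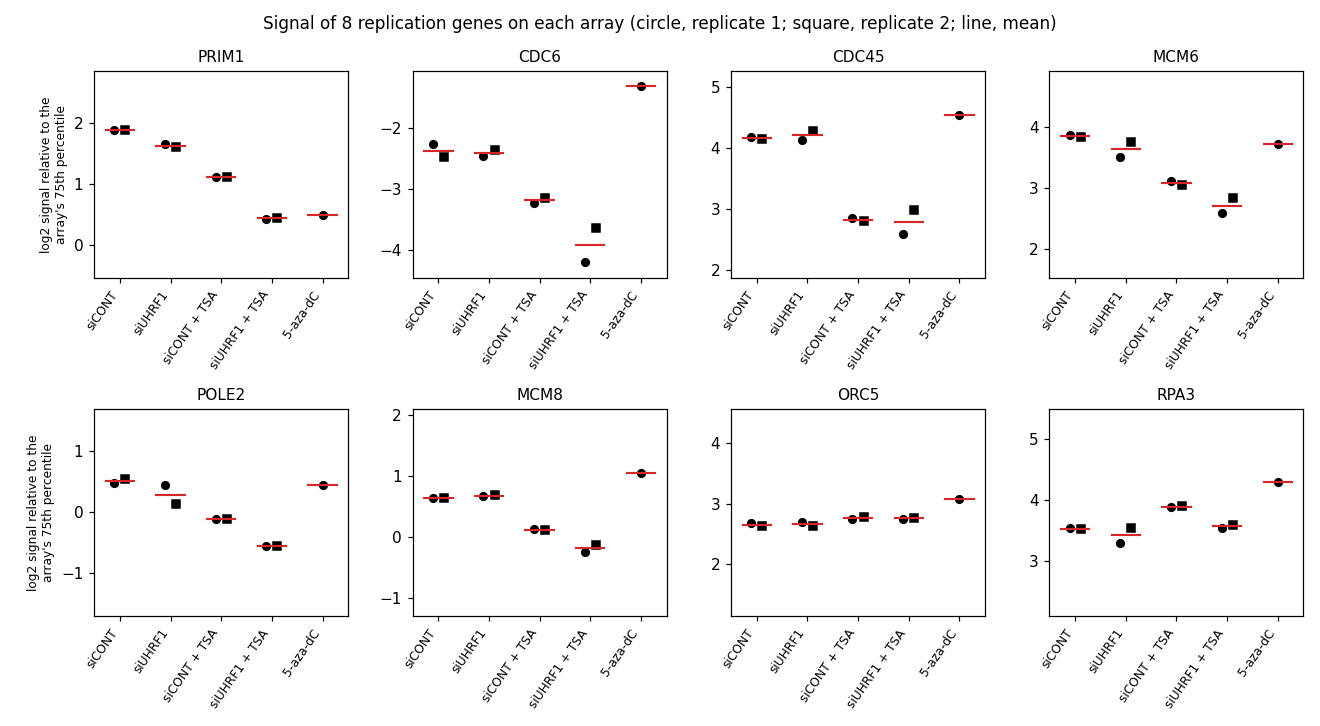
Log2 signal relative to the array's 75th percentile for 8 genes on each array (circles, replicate 1; squares, replicate 2) with the group mean as a red line; every panel spans the same number of log2 units. PRIM1 steps down from 1.89 in siCONT to 0.43 and 0.45 in siUHRF1 + TSA, CDC45 is low on all 4 TSA arrays, and ORC5 stays between 2.63 and 2.79 on the siRNA arrays.

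All 5 genes of the replicative polymerases epsilon and delta were called lower. POLE2 is the second subunit of polymerase epsilon, which copies the leading strand. POLE2 read 0.47 and 0.54 in siCONT, 0.44 and 0.12 in siUHRF1, -0.12 and -0.11 in siCONT + TSA and -0.57 and -0.56 in siUHRF1 + TSA. No groups overlapped, and the siUHRF1 pair was the most spread. POLE2 fell by 1.07 (standard error 0.13, adjusted p = 0.00337), and the catalytic subunit POLE fell by 0.53 (adjusted p = 0.0162). POLD3 is an accessory subunit of polymerase delta, which copies the lagging strand. POLD3 read 0.42 and 0.54 in siCONT, 0.33 and 0.58 in siUHRF1, -0.46 and -0.52 in siCONT + TSA and -1.0 and -0.34 in siUHRF1 + TSA. All TSA arrays were below all mock arrays, but the siUHRF1 + TSA pair lay on either side of the siCONT + TSA pair. POLD3 fell by 1.15 (standard error 0.22, adjusted p = 0.0148), while the catalytic subunit POLD1 and the accessory subunit POLD2 fell by 0.56 and 0.45.

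Of the 6 clamp loader genes, RFC1, RFC2, RFC4 and RFC5 were called lower, whereas RFC3 and DSCC1 were not. RFC2 is a small subunit of the loader. RFC2 read 1.71 and 1.77 in siCONT, 1.83 and 1.84 in siUHRF1, 0.85 and 0.94 in siCONT + TSA and 0.71 and 0.99 in siUHRF1 + TSA. All its TSA arrays were below all its mock arrays, and the TSA groups overlapped. RFC2 fell by 0.89 (standard error 0.12, adjusted p = 0.00502). RFC3 had a log2 fold change of -0.90 with a standard error of 0.32 (adjusted p = 0.0915), and its siUHRF1 arrays read -0.00019 and -1.02. The clamp PCNA and the Okazaki fragment enzymes FEN1 and LIG1 were all called. FEN1 is the flap nuclease. FEN1 read 1.43 and 1.38 in siCONT, 1.58 and 1.26 in siUHRF1, 0.82 and 0.71 in siCONT + TSA and 0.51 and 0.66 in siUHRF1 + TSA. Every TSA array was below every mock array, and FEN1 fell by 0.82 (standard error 0.13, adjusted p = 0.00883). LIG1, the ligase, fell by 0.90 and PCNA by 0.67, and the 2 other PCNA probes fell by 0.63 and 0.73.

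RPA and the fork protection genes were divided, and neither CAF-1 gene was called. RPA1 is the large subunit of the trimer that covers single-stranded DNA. RPA1 read 3.82 and 3.75 in siCONT, 3.65 and 3.83 in siUHRF1, 3.48 and 3.42 in siCONT + TSA and 3.23 and 3.41 in siUHRF1 + TSA. The TSA arrays were below the mock arrays and the TSA groups did not overlap. RPA1 fell by 0.47 (standard error 0.11, adjusted p = 0.0321). RPA2 and RPA3 had log2 fold changes of -0.073 and 0.04 and were not called, and RPA3 had -0.058 with quantile normalization and -0.11 with spike-in scaling. WDHD1 links the helicase to polymerase alpha. WDHD1 read 1.26 and 1.31 in siCONT, 0.74 and 1.15 in siUHRF1, 0.54 and 0.51 in siCONT + TSA and -0.45 and 0.44 in siUHRF1 + TSA. The lowest array was siUHRF1 + TSA replicate 1. WDHD1 fell by 1.29 (standard error 0.29, adjusted p = 0.0249), with a log2 fold change of -0.85 without that array. Claspin (CLSPN), the checkpoint mediator, fell by 0.98 (adjusted p = 0.0293), while TIMELESS and TIPIN, the fork protection pair, had -0.34 and -0.24 and were not called.

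CHAF1A encodes the large subunit of CAF-1, which places histones behind the fork. CHAF1A read 3.89 and 3.89 in siCONT, 3.71 and 4.15 in siUHRF1, 3.48 and 3.38 in siCONT + TSA and 3.08 and 3.58 in siUHRF1 + TSA. The duplicates of both UHRF1-depleted groups were widely spaced, and the siUHRF1 + TSA pair lay on either side of the siCONT + TSA pair. Its log2 fold change in the combination was -0.56 (standard error 0.21, adjusted p = 0.105), and that of CHAF1B was -0.47 (adjusted p = 0.133). A dimmer CHAF1A probe fell by 0.66 (adjusted p = 0.0177), so its probes gave different calls.

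With TSA and no UHRF1 depletion, most of these genes were lower too, though the main fit called fewer than in the combination. The order of the counts depended on the test: the methods' t-test with Benjamini-Hochberg adjustment called 29 for TSA alone and 1 in the combination. In siCONT + TSA against siCONT, 17 of 52 were called lower and 0 higher, compared with 3.95% and 6.46% of all probes (1.71% and 1.6% with spike-in scaling, 0.902% and 0.868% with normexp). The median was -0.46, against 0.069 for all probes, and 48 of 52 values were below 0, as were 42.0% of all probes. Both siCONT + TSA arrays were below both siCONT arrays for 45 of 52 genes and for 30.5% of all probes. The called falls were largest in CDC45 (1.34, adjusted p = 0.0102) and MCM10 (1.11, adjusted p = 0.0171), and POLD3, POLA1, RFC2, MCM6 and PRIM1 fell by 0.97, 0.90, 0.84, 0.77 and 0.77. By subcomplex, 3 of 6 MCM2-7 genes, 3 of 4 genes of primase and polymerase alpha and both other MCM genes were called, and 0 of 3 RPA, 0 of 4 fork protection and 0 of 2 CAF-1 genes. DSCC1, which works with RFC subunits in sister chromatid cohesion, was called here (a fall of 0.68, adjusted p = 0.0368) and had -0.47 in the combination (adjusted p = 0.0593). At the other end, RPA3, DBF4, GINS1 and ORC5 had log2 fold changes of 0.36, 0.24, 0.12 and 0.11, none called.

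This comparison shares the siCONT arrays with the combination, so their values are not independent. The count of members called for TSA alone was 0 without siCONT replicate 1, without siCONT replicate 2, without siCONT + TSA replicate 1 and without siCONT + TSA replicate 2. It was 41 (39 lower, 2 higher) when only the 4 arrays compared entered the fit, against 17.3% and 26.9% of all probes. The sizes moved less than the calls. With each array left out in turn, the members' median ran from -0.46 to -0.43 and CDC45 from -1.36 to -1.32.

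TSA in UHRF1-depleted cells lowered 27 of 52 genes and raised 0, against 5.52% lower and 9.96% higher among all probes (3.98% and 3.91% with spike-in scaling, 8.29% and 8.78% with quantile normalization), and the median was -0.58. CDC45 fell by 1.42 and PRIM1 by 1.19 (adjusted p = 0.00424 and 0.00139). CDC6 had -1.52 (adjusted p = 0.00787), and -1.23 without siUHRF1 + TSA replicate 1 (adjusted p = 0.0173). MCM4, MCM5, MCM6 and MCM2 fell by 0.81, 0.77, 0.93 and 0.63, and 5 of 6 clamp loader genes were called. No GINS, RPA, fork protection or CAF-1 gene was called. The count was 14 without siCONT replicate 1, 13 without siCONT replicate 2, 16 without siCONT + TSA replicate 1, 14 without siCONT + TSA replicate 2 and 12 without siUHRF1 + TSA replicate 1. With only the 4 arrays compared it was 3, against 0.612% of all probes called lower and 2.16% higher. The arrays of these 2 groups pair by siRNA, which the fit did not use.

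UHRF1 depletion without TSA moved no replication gene past the threshold. In siUHRF1 against siCONT, 0 of 52 were called by limma, against 0.556% of all probes, and the median was -0.047. At an unadjusted p below 0.05, limma gave 1 gene, PRIM1 (log2 fold change -0.25, standard error 0.085, adjusted p = 0.43), compared with 8.91% of all probes. At the same threshold the methods' t-test gave 9 genes, 4 lower and 5 higher, against 3.09% and 4.70% of all probes. ANOVA with Tukey's test gave 1, lower, against 1.36% lower and 3.05% higher. Both siUHRF1 arrays were below both siCONT arrays in 13 of 52 genes and in 17.5% of all probes. The lowest value was that of CLSPN, -0.55 (adjusted p = 0.578), whose siUHRF1 arrays read -2.10 and -1.62 against -1.29 and -1.35 in siCONT. The highest was that of ORC1, 0.25 (adjusted p = 0.739), whose siUHRF1 arrays read -1.53 and -1.55 against -1.82 and -1.75. In both genes the groups did not overlap.

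Under TSA, UHRF1 depletion lowered PRIM1 further. In siUHRF1 + TSA against siCONT + TSA, PRIM1 fell by 0.68 (1.60-fold, standard error 0.085, adjusted p = 0.0109), and it was the 1 of 52 genes called lower, against 0.573% of all probes. The adjusted p of PRIM1 was 0.0523 without siCONT replicate 1, 0.0537 without siCONT replicate 2, 0.102 without siCONT + TSA replicate 1 and 0.0994 without siCONT + TSA replicate 2, where 0 genes were called. It was 0.287 with normexp and 0.124 with spike-in scaling, and 2 genes were called without siUHRF1 replicate 1, without siUHRF1 replicate 2 or without siUHRF1 + TSA replicate 2. The members' median was -0.17, against -0.0076 for all probes, and both arrays were below both control arrays in 31 of 52 genes and in 26.8% of all probes. CDC6 had -0.74 (standard error 0.19, adjusted p = 0.121), and -0.45 without siUHRF1 + TSA replicate 1, where its probe was not above background. GMNN, POLE2 and MCM8 had log2 fold changes of -0.45, -0.45 and -0.31 (adjusted p = 0.091, 0.138 and 0.145), and GINS3 had the highest, 0.29 (adjusted p = 0.302).

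Under TSA, most of the 52 genes were lower with siUHRF1-1 than with siUHRF1-2. Relative to the mean of the siCONT + TSA arrays, the median of the 52 genes was -0.31 with siUHRF1-1 and -0.064 with siUHRF1-2, and 47 of 52 genes were lower with siUHRF1-1. The same share was not taken over all probes, so a difference between the arrays as a whole cannot be told apart from one in these genes. With 1 array per siRNA the count is a description with no test, and UHRF1 itself read -0.34 with siUHRF1-1 and -0.62 with siUHRF1-2. The difference from the control mean was -0.69 and -0.67 for PRIM1, -0.45 and -0.44 for POLE2, -0.18 and -0.15 for TOPBP1 and -0.36 and -0.26 for MCM8, close between the siRNAs. It was -0.98 and -0.088 for WDHD1, -0.81 and -0.21 for CLSPN and -0.51 and 0.15 for POLD3, far apart. CDC6 was -0.45 with siUHRF1-2 and not well above background with siUHRF1-1. The 5 genes lower with siUHRF1-2 were ORC2, ORC3, ORC4, CDC7 and RFC3. Without TSA, the medians were -0.079 and 0.017, and 32 of 52 genes were lower with siUHRF1-1.

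**Figure D4:**
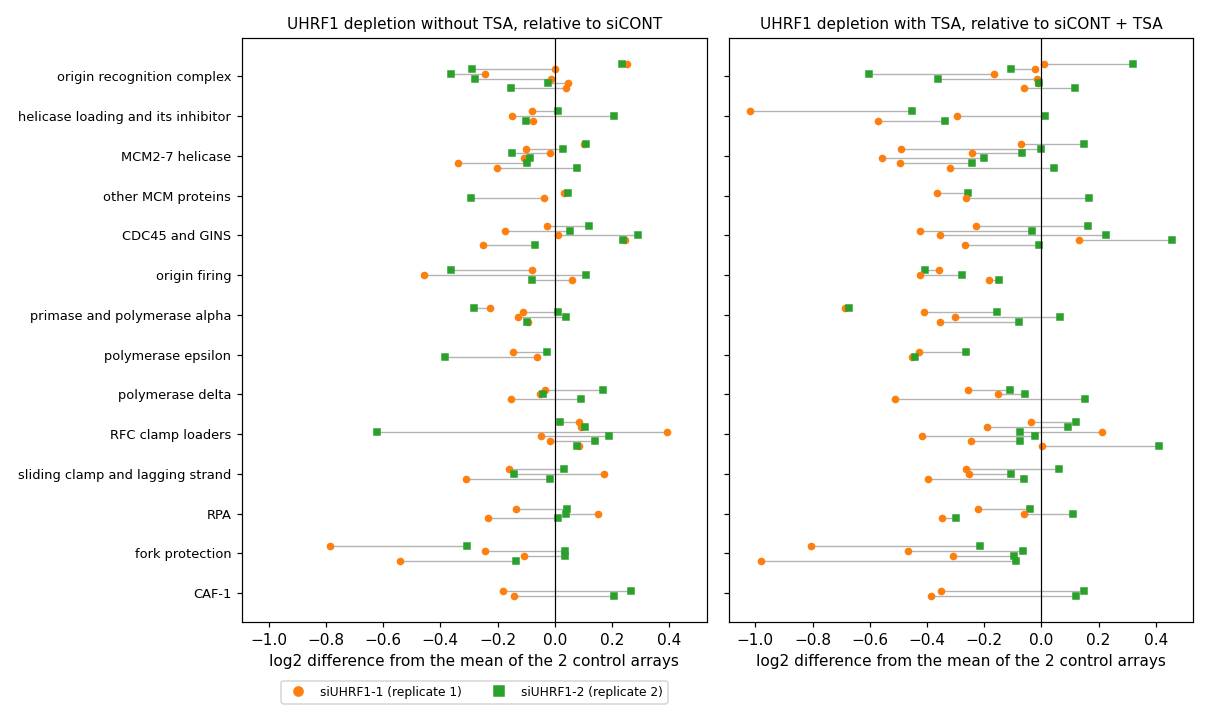
Log2 difference of each gene from the mean of its 2 control arrays for siUHRF1-1 (orange circles) and siUHRF1-2 (green squares), by subcomplex, without TSA (left) and with TSA (right); a grey line joins the values of a gene. On the right, the orange point lies left of the green one in 47 of 52 genes, a share not taken over all probes. The points of PRIM1, at -0.69 and -0.67, nearly coincide.

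Whether the effect of UHRF1 depletion differed with TSA was tested as an interaction. No replication gene was called by limma (0 of 52, against 0.379% of all probes). At an unadjusted p below 0.05, limma gave 3 genes: CDC6, PRIM1 and MCM8, with interactions of -0.70, -0.42 and -0.35 (adjusted p = 0.963, 0.601 and 0.894), compared with 4.91% of all probes, and CDC6 had -0.42 without siUHRF1 + TSA replicate 1. The median interaction was -0.15, and 44 of 52 values were below 0, as were 50.2% of all probes. Without siUHRF1 + TSA replicate 1 the median was 0.013, and without siUHRF1 + TSA replicate 2 it was -0.26.

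On the single 5-aza-dC array, replication genes lay on both sides of siCONT, and the direction of most depended on the scaling. This comparison has no replicate of the drug. Relative to the 75th percentile, 32 of 52 values were above 0 and 20 below. If the lone array varied like the siRNA groups, 18 genes would be called higher and 4 lower, against 24.1% and 24.8% of the 27171 probes tested, with a median of 0.23, but with spike-in scaling 0 would be called higher and 50 lower, with a median of -1.65. The median of all probes moved from 0.012 to -1.87 and their calls to 6.17% higher and 81.6% lower, and normexp gave 12% and 24.3%. The 75th percentile and spike-in scalings each subtract a single value per array, so they move the fold changes of all genes by the same amount. The order of the genes therefore cannot differ between them. The members' median lay above that of all probes, by a distance that is the same under both by construction. The array lay on another slide and scan and had no siRNA, so drug, slide and transfection cannot be told apart. The 4 genes called lower under that assumption could only move lower with spike-in scaling, which shifted all genes down, so it is no second test of them. Their log2 fold changes on the 2 scalings were -1.39 and -3.28 for PRIM1, -1.19 and -3.07 for POLD2, -0.91 and -2.79 for LIG1 and -0.70 and -2.59 for CDT1. PRIM1 was the lowest of the 52 genes, and its level was 0.49 on this array. The highest were ORC1, MCM4, GINS2, CDC6 and ORC6, at 1.34, 1.21, 1.13, 1.06 and 1.05 relative to the 75th percentile and -0.55, -0.68, -0.76, -0.83 and -0.84 with spike-in scaling. ORC1 read -0.45 on this array, against -1.82 and -1.75 in siCONT. By subcomplex, the median of the brightest probes ran from -0.47 for primase and polymerase alpha to 0.60 for RPA on the first scaling. The probes of RPA1 differed, with -0.26 for the brightest and -2.09 for the other, while those of RPA2 had 0.60 and 0.78. Brightest and other probe differed in sign for ORC2 (0.67 and -0.73), POLE (0.081 and -0.56) and MCM7 (0.018 and -0.42). They did not in the other genes with a further probe tested. The brightest probe of ORC2 is among those counted as higher. The count of 22 genes called became 11 without siCONT replicate 1, 9 without siCONT replicate 2, and 14 without siCONT + TSA replicate 1 or replicate 2. These calls describe the array and not the spread of the drug's effect.

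**Figure D5:**
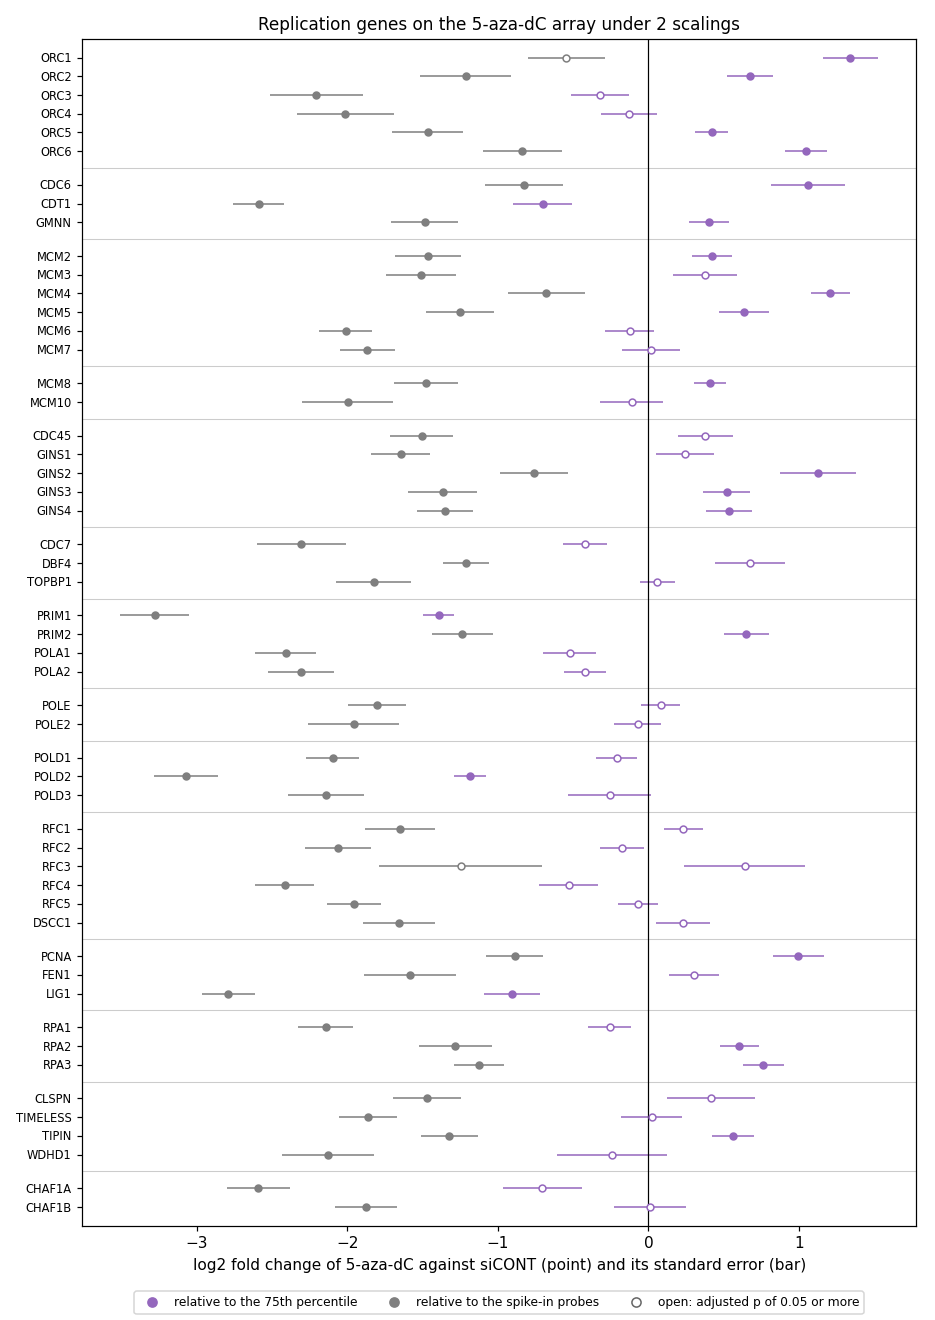
Log2 fold change of each gene with its standard error on the 5-aza-dC array against siCONT, scaled on the 75th percentile (purple) or on the spike-in probes (grey); error bars and filled points (adjusted p below 0.05) take the spread from the siRNA arrays. The purple points run from -1.39 (PRIM1) to 1.34 (ORC1), and all grey points lie left of 0, from -3.28 to -0.55.

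A wider list of 59 other genes of replication, its regulators and its chromatin, also chosen with earlier results known, was read the same way. Of these, 58 were on the array and 56 were tested on the siRNA arrays. In the combination 15 were called lower and 1 higher (all probes: 8.24% and 15.0%), with a median of -0.30, and with TSA alone 10 were called lower and 0 higher (all probes: 3.95% and 6.46%). DTL is the ubiquitin ligase receptor that marks CDT1 for degradation. DTL read 2.58 and 2.56 in siCONT, 2.34 and 2.50 in siUHRF1, 1.4 and 1.41 in siCONT + TSA and 0.68 and 1.31 in siUHRF1 + TSA. DTL fell by 1.57 in the combination (standard error 0.20, adjusted p = 0.0044). ATAD5 belongs to the complex that unloads PCNA. ATAD5 read -1.53 and -1.51 in siCONT, -1.53 and -1.82 in siUHRF1, -2.45 and -2.55 in siCONT + TSA and -2.89 and -2.49 in siUHRF1 + TSA. ATAD5 fell by 1.17 (standard error 0.16, adjusted p = 0.00574). MMS22L takes part in the repair of stalled forks. MMS22L read 0.39 and 0.39 in siCONT, 0.48 and 0.56 in siUHRF1, -0.45 and -0.49 in siCONT + TSA and -0.90 and -0.49 in siUHRF1 + TSA. MMS22L fell by 1.09 (standard error 0.15, adjusted p = 0.00502), and in all 3 genes every TSA array was below every mock array. The gene called higher was POLD4, the small subunit of polymerase delta. POLD4 read 3.42 and 3.40 in siCONT, 3.44 and 3.56 in siUHRF1, 3.77 and 3.76 in siCONT + TSA and 4.08 and 3.86 in siUHRF1 + TSA. Its TSA arrays were above its mock arrays, and it rose by 0.56 (standard error 0.11, adjusted p = 0.0162), whereas POLD1, POLD2 and POLD3 of the same enzyme fell. UHRF1 depletion without TSA, with TSA and the interaction gave 0 calls among the 56 by limma, where 0.556%, 3.54% and 0.379% of all probes were called.

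Other probes of the members were read in the combination. There were 15 further probes in 13 genes, of which 14 were tested, and 11 of these had the sign of the brightest probe. The exceptions were probes of ORC5 (-0.046), RPA2 (0.024) and ORC2 (0.31), which were not called, like the brightest probes of these genes.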

How the data were processed

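Total RNA of RKO cells was labelled with Cy3 and hybridized to 9 Agilent SurePrint G3 Human GE v2 arrays. The authors deposited spot intensities from Feature Extraction 10.7.3.1, background-subtracted and spatially detrended but not normalized between arrays, and a value table with the rounded signals. Here log2 signals were taken relative to each array's 75th percentile, outlier spots were left out and spots of a probe averaged. Probes well above background on every array of 1 or more groups were fitted with limma 3.58.1 (lmFit and eBayes, R 4.3.3) over the 8 siRNA arrays in 4 groups, or over all 9 for 5-aza-dC. The number of arrays limits the precision. In simulated arrays, 200 of 23699 probes differed by 1.5 log2 units in the combination. Of these, 151 were recovered and 6 others called, and the interaction recovered 101 of the 200. These counts hold for that size only, and for arrays drawn independently with the same spread in every group. In the data the duplicates differed more in the depleted groups, and depleted arrays with the same siRNA deviated together. The counts therefore do not carry over to these data. Recovery at smaller sizes, such as the members' median of -0.55 in the combination, was not tested.

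The members and lists were chosen with earlier results of these data known. Values per array are given for the member of lowest p in each subcomplex in the combination, for members called in a UHRF1 comparison or dim in a group, for UHRF1, and for the other replication genes with the 3 largest called falls and up to 3 called rises; GMNN, ORC1, ORC5, CLSPN and RFC3 were added after their values were seen. Alternatives were normexp, quantile, median and spike-in scaling, other filters, outlier spots kept, the value table, a replicate block, compared arrays only, arrays left out, a trended prior, unadjusted p, Tukey's test, the methods' t-test and probe averages.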

Additional observations from a re-analysis of the deposited data

Results flagged for a closer look

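MCM8 was singled out because its values after UHRF1 depletion lay on opposite sides of the control arrays with and without TSA. Both siUHRF1 arrays (0.67 and 0.68) were above both siCONT arrays (0.64 and 0.63), with a log2 fold change of 0.039 (adjusted p = 0.954), and both siUHRF1 + TSA arrays (-0.24 and -0.13) were below both siCONT + TSA arrays (0.14 and 0.11), with -0.31 (adjusted p = 0.145). The test of the difference between these effects gave -0.349 (limma, standard error 0.13, adjusted p = 0.894), which did not pass the threshold.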

How the results depend on the processing

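In the combination, members were called lower only under all 25 alternatives, from 1 to 39 of them. Normexp background correction called 19 members in the combination, 9 for TSA alone, 0 for UHRF1 depletion in TSA-treated cells and 13 for TSA in depleted cells. Of all probes it called 2.30%, 0.902%, 0.0295% and 1.24% lower in the same order. Spike-in scaling called 8 for TSA alone, 0 for depletion in TSA-treated cells and 50 for 5-aza-dC. It moved the median of all probes from 0.053 to -0.095 in the combination and from 0.069 to -0.035 for TSA alone. Without a filter on dim probes there were 4 for TSA alone and 17 for TSA in depleted cells, and with the compared arrays only, 41 and 3. A trended and robust prior called 2 for depletion in TSA-treated cells. At an unadjusted p below 0.05 in limma the counts were 32 for TSA alone, 1 for UHRF1 depletion, 11 for depletion in TSA-treated cells and 3 for the interaction. Of all probes, 28.9%, 8.91%, 17.4% and 4.91% passed in the same order. The methods' t-test at that threshold called 42 (39 lower, 3 higher) for TSA alone, 9 (4 lower, 5 higher) for UHRF1 depletion and 7 for depletion in TSA-treated cells. With a change over 2-fold as well it called 7 in the combination, 2 for TSA alone, 0 for depletion in TSA-treated cells and 3 for TSA in depleted cells, and with Benjamini-Hochberg adjustment 1, 29, 0 and 0. Tukey's test called 1 for UHRF1 depletion and 4 for it in TSA-treated cells. Counts given in this section without a share of all probes describe the members only.

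With each array left out in turn, the counts were 9 to 34 in the combination, 0 to 25 for TSA alone, 0 to 0 for UHRF1 depletion, 0 to 2 for it in TSA-treated cells, 12 to 28 for TSA in depleted cells, 0 to 0 for the interaction and 9 to 27 for 5-aza-dC; where 1 array was left in a group, its spread was taken from the others. A replicate block gave 32, 17, 0, 1, 25, 0 and 22 in the same order. In the depleted groups the replicate number stands for the siRNA, and same-numbered arrays of siUHRF1 and siUHRF1 + TSA deviated together (correlation 0.56 across probes). The other pairs of groups had correlations between -0.064 and 0.084. The main fit used group means and left out this pairing by siRNA, also for TSA in depleted cells and the interaction. The replicate block assumed the same shift in all groups. A slide or scan block could not be fitted, as all siRNA arrays share 1 slide and 1 scan.

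Some values turned sign. CDC6 for TSA alone was 0.12 with normexp. In the combination RPA3 was -0.058 with quantile normalization and -0.11 with spike-in scaling, ORC5 was -0.049 with spike-in scaling and ORC2 was 0.057 with probes averaged. With arrays left out, GINS1 ran from -0.31 to 0.087, GINS3 from -0.18 to 0.15 and RPA2 from -0.16 to 0.013. For 5-aza-dC, spike-in scaling gave a median of -1.65, -0.55 for ORC1, -0.68 for MCM4, -0.76 for GINS2, -0.84 for ORC6 and -0.89 for PCNA. The cause of these changes was not tested.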
